A study of Mus musculus with 2 samples.

Results

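The BCL2 family was described in RNA of whole colon from control mice and from mice bred to lose the prostaglandin E2 receptor EP4 in the intestinal epithelium. The members were 10 genes: the survival guardians Bcl2, Bcl2l1 (BCL-XL) and Mcl1, the pore-forming effectors Bax and Bak1, and the BH3-only genes Bid, Bad, Bcl2l11 (BIM), Pmaip1 (NOXA) and Bbc3 (PUMA). They were taken by name, because the study concerns apoptosis in the colon epithelium, and each was found through the RefSeq accession of its probes. They are 10 of the 22909 genes that could be named on the arrays, and all 10 belonged to the 14669 genes with a value. Control mice carried Villin-Cre, a transgene that makes Cre recombinase under the Villin promoter in the intestinal epithelium. EP4 cKO mice were Villin-Cre; EP4flox/flox, so that Cre was present in both groups and the floxed Ptger4 gene, which encodes EP4, only in the second. Both groups were C57BL/6, and the methods give the same age for all mice. The RNA came from the whole colon and not from sorted epithelium, and that of each genotype was combined from 3 pools before labelling with Cy3. There was 1 Agilent array per genotype, both on 1 slide. No difference therefore has a replicate check, p-values cannot be given, and the values hold for this pair of arrays.

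Proteins of the BCL2 family decide whether the outer mitochondrial membrane stays intact. BAX and BAK form pores in it that let cytochrome c out, the guardians BCL2, BCL-XL and MCL1 hold BAX and BAK in check, and the BH3-only proteins either block the guardians or activate the pore formers. In the colon, worn cells are shed at the luminal surface, and both BAX and BAK are made in this epithelium. Much of the regulation of the family is by protein turnover, phosphorylation and location, which an RNA array does not see.

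The depth of an array is its signal over background. Of 56593 gene probes, 45.4% passed the flag for signal well above background in Villin-Cre and 51.6% did in EP4 cKO. No spot was saturated. Each array was set to a trimmed mean signal of 2500, and ratios are EP4 cKO over Villin-Cre on the log2 scale. Ptger4, the deleted gene, had a scaled signal of 6227 in Villin-Cre colon and 5661 in EP4 cKO colon with its brighter probe (log2 ratio -0.14), and 393 and 592 with its dimmer probe (0.59). It was thus not lower by 2-fold on the array labelled EP4 cKO. Where these probes lie relative to the deleted part was not determined here. All directions below rest on the labels, and "EP4 cKO array" means the array labelled so.

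Of the 10 members, Pmaip1 was the only one past 2-fold, the threshold used in the study's methods, and it was higher on the EP4 cKO array. No member was more than 2-fold lower. Among all genes with a value, 4.86% exceeded 2-fold upwards and 7.87% downwards. Past 1.5-fold, 3 members were higher (Pmaip1, Bak1 and Bcl2l1) and 1 was lower (Bbc3), against 9.84% of all genes higher and 18.6% lower. These calls lie close to the threshold: Bbc3 was within 1.5-fold under the 75th percentile (-0.56), normexp (-0.53), loess (-0.57) and E1A scaling, and Bcl2l1 was so with the mean of all probes (0.43) and with the ratios centred on the epithelial markers (0.58). Other calls were gained: Mcl1 was higher under the 75th percentile (0.63) and the trimmed mean over all spots (0.61). Bax was lower when centred on the epithelial markers (-0.60), and 8 members were higher under E1A scaling. The median log2 ratio of the 10 members was 0.19 beside -0.10 for all 14669 genes, with 6 members above 0 and 4 below. When the arrays were instead scaled to Agilent's E1A control spots, which are designed for added control RNA, the median of all genes moved by 0.93 and all 10 members lay above 0, so signs are given for the trimmed-mean scaling and positions relative to other genes are given further on. The sign of Bcl2 (-0.07) also turned under scaling to the 75th percentile, loess and the trimmed mean over all spots. All 3 guardians had ratios above the all-gene median, as did 1 of the 2 effectors and 3 of the 5 BH3-only genes. The medians were 0.47 for the 3 guardians (-0.07 to 0.66), 0.09 for the 2 effectors (-0.52 to 0.70) and 0.11 for the 5 BH3-only genes (-0.72 to 1.18).

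In whole colon, fewer cells of a type and less RNA per cell cannot be told apart, so the markers of the cell types in the wall are given beside these values. All 12 epithelial markers, among them Epcam, Vil1 and Krt8, were well above background on both arrays, with a signal summing to 2717935 in Villin-Cre and 3129105 in EP4 cKO. Krt20, a keratin of mature surface cells, had the largest ratio of that list (146575 and 510711, 1.80) and most of the difference in the sum. Car1, Cdx2, Lgals4, Cdh1 and Cdx1 lay at -0.42, -0.25, -0.24, -0.10 and -0.07. Of 8 fibroblast markers, 7 passed that flag in Villin-Cre and 3 in EP4 cKO, and 6 were more than 2-fold lower, among them Dcn (6006 and 110, -5.77), Col1a2 (3613 and 111, -5.03) and Col3a1 (1621 and 39.9, at least 28-fold lower). Their summed signal was 14716 and 2435, of which Fn1 alone gave 1071 and 2119 (0.98). Of 12 lymphocyte markers 7 and 10 were above background (sums 13797 and 14932), of 11 macrophage and monocyte markers 5 and 7 (63715 and 88500), of 7 smooth muscle markers 4 and 5 (30174 and 45511), of 6 endothelial markers 2 on each array (1263 and 1235), and of 8 markers of enteric neurons and glia 3 on each array (4068 and 2047). These sums are led by a few bright probes and hide markers with other ratios: most of the smooth muscle sum came from Acta2 (18006 and 27719), while Cnn1 read 479 and 72.3 (-2.73), and most of the macrophage sum from Itgam (49347 and 68597), while Csf1r read 4874 and 2817 (-0.79, or 0.21 under E1A scaling), Cd14 and C1qb lay at 0.88 and 0.33, and Mrc1 (90.6 and 540) was at least 4.31-fold higher. The largest part of the lymphocyte sum came from Cd4 (6749 and 7641, 0.18). Cd3g (208 and 504) lay at 1.28, or 0.88 with normexp. Ptprc, Cd2, Lck and Cd3e lay at 0.97, 0.91, -0.03 and -0.10, and Cd3d at -0.79, or 0.06 with the mean of all probes. The defining smooth muscle markers Myh11 and Lmod1, the B cell marker Ms4a1 and the macrophage marker Adgre1 did not pass the flag in either genotype. The part of these cell types in the values of the BCL2 family was not tested.

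The 10 members were covered by 19 probes, 6 members by a single probe. Of the 19 probes, 15 passed the background flag in both genotypes, 3 in EP4 cKO alone and 1 in neither. Each probe had 1 spot, so the only error at hand is the one the scanner software gives for the signal of a spot, carried over to the log2 ratio. It was between 0.20 and 0.21 for the brightest probe of every member, and it covers 1 hybridization, not mice.

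**Figure D1:**
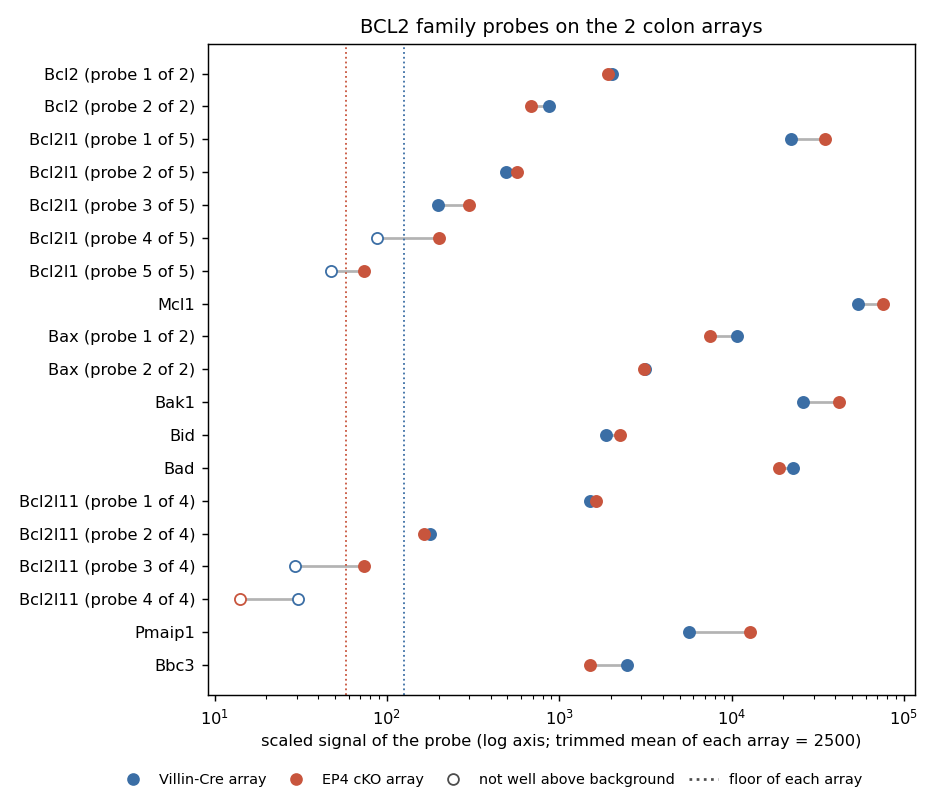
Scaled signal (horizontal log axis) of each of the 19 BCL2 family probes on the Villin-Cre array (blue) and the EP4 cKO array (red), with open circles where a probe was not well above background and dotted lines at the lowest signal well above background (125 and 57.8). A line joins the 2 arrays of a probe, and only points on the same line can be compared; the widest gap among probes well above background on both arrays is that of Pmaip1, 5675 and 12858.

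Among the guardians, Bcl2l1 and Mcl1 had ratios above the median of all genes and Bcl2 had a ratio near it. Bcl2l1 encodes BCL-XL, the guardian that protects many epithelial cells. Its brightest probe read 22054 in Villin-Cre and 34790 in EP4 cKO, a log2 ratio of 0.66 (software error 0.20) or 1.58-fold. Of all genes, 91.4% had a lower ratio. The other probes of Bcl2l1 were far dimmer. The second read 491 and 572 (0.22, error 0.23) and the third 199 and 299 (0.58, error 0.31), so that all 3 probes measured on both arrays were higher on the EP4 cKO array, the second by less than its error. The next read 88 and 200 and was well above background on the EP4 cKO array only, which gives a bound of at least 1.6-fold against the floor of the Villin-Cre array. The dimmest read 47.1 and 73.6, below the floor of the Villin-Cre array, and gives no fold.

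Mcl1 encodes a short-lived guardian that is held by NOXA and BIM. Its single probe read 54464 in Villin-Cre and 75680 in EP4 cKO, a log2 ratio of 0.47 (error 0.20), and 87.6% of all genes had a lower ratio. Bcl2, the founding guardian of the family, read 2021 and 1923 with its brighter probe (-0.07, error 0.21) and 867 and 683 with its dimmer one (-0.34, error 0.21). The first of these differences is within the error of the spot and the second is not. The ratio of Bcl2 lay at the middle of all genes, with 52.3% below it. In log2 ratio, Bcl2l1 exceeded Bcl2 by 0.73 and Mcl1 exceeded Bcl2 by 0.55 (software error 0.29 for each difference). These differences between genes do not depend on a linear scaling of the arrays, and over the settings tried they ran from 0.61 to 0.73 and from 0.45 to 0.68.

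The pore formers Bak1 and Bax had ratios of opposite sign, except under E1A scaling (1.71 and 0.48). Bak1, whose protein sits in the outer mitochondrial membrane, read 25852 in Villin-Cre and 42141 in EP4 cKO, a log2 ratio of 0.70 (error 0.20) or 1.63-fold, with 92% of all genes below it. Bax, whose protein moves from the cytosol to mitochondria, read 10817 and 7543 with its brighter probe, a log2 ratio of -0.52 (error 0.20) or 1.43-fold lower on the EP4 cKO array, with 21.2% of all genes below it. The second Bax probe read 3148 and 3090 (-0.03, error 0.20), so the probes of Bax disagree: the lower value comes from the brighter probe alone. The log2 ratio of Bak1 exceeded that of Bax by 1.23 (error 0.29), and by 0.98 when all probes of a gene were averaged, the lowest of the settings tried. Neither gene passed 2-fold, except Bak1 under E1A scaling.

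The promoters of this pair are shown because these genes share a task and had ratios of opposite sign. RefSeq (GRCm38.p6) gives 1 start for each. The 250 bases before the start are written 5′ to 3′ on the strand of the gene, which is the minus strand for both, at chr17:27028628-27028877 for Bak1 and chr7:45466899-45467148 for Bax. Capitals mark a p53 half-site, a short element that p53 binds in pairs, and Bak1 has no match to it.
Bak1 promoter: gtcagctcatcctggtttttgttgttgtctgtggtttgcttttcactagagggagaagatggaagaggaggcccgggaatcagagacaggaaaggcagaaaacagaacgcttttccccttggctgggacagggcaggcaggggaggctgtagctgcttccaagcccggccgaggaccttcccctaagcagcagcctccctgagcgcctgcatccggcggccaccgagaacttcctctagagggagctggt
Bax promoter: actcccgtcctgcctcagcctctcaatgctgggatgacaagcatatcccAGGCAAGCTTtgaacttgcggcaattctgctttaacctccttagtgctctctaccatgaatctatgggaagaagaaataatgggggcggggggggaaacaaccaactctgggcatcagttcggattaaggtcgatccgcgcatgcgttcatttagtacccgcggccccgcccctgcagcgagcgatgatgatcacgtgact
The half-site of Bax lies at positions -201 to -192 from the start and matches on both strands, since the element is symmetric. Over windows of 300 bases (250 before and 50 after the start), 8.36% of 32851 RefSeq promoters held a match, and Bax was the only member among the 9 with a promoter in the table. Pmaip1 was not among the 9 and was not searched. A match is a run of letters and not a measured site, and the arrays do not measure binding.

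The BH3-only genes, which pass stress signals to the family, spanned the whole range of the members. Pmaip1 encodes NOXA, which binds MCL1 and takes it to degradation. It read 5675 in Villin-Cre and 12858 in EP4 cKO, a log2 ratio of 1.18 (error 0.20) or 2.27-fold, and 96.3% of all genes had a lower ratio. The signals before scaling were 1644 and 4790. Pmaip1 had 1 probe, so no second probe bears on its value.

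Bbc3 encodes PUMA, which binds all guardians and is a well-known p53 target like Pmaip1. It read 2485 in Villin-Cre and 1511 in EP4 cKO, a log2 ratio of -0.72 (error 0.21) or 1.65-fold lower (0.28 under E1A scaling), and 14% of all genes had a lower ratio. Pmaip1 and Bbc3 thus lay at opposite ends of the 10 members, with log2 ratios that differed by 1.90 (error 0.29; 1.70 to 1.90 over the settings tried). The log2 ratio of Pmaip1 also exceeded that of Mcl1, the guardian it binds, by 0.71 (error 0.29; 0.67 to 0.72).

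Bid, which caspase-8 cleaves to link death receptors to mitochondria, read 1860 and 2237 (0.27, error 0.21). Bad, which is held by 14-3-3 proteins while it is phosphorylated and otherwise blocks BCL-XL and BCL2, read 22814 and 18728 (-0.28, error 0.20). The log2 ratio of Bcl2l1 exceeded that of Bad by 0.94 (error 0.29). Bcl2l11 encodes BIM, which is bound by all guardians. Its brightest probe read 1509 and 1634 (0.11, error 0.21) and the second 177 and 164 (-0.11, error 0.34), so both differences were within the error of the spots. The third Bcl2l11 probe read 29.4 and 73.6, under the floor of the Villin-Cre array, and gives no fold, and the dimmest read 30.6 and 14 and passed the background flag in neither genotype. Bid, Bad and Bcl2l11 lay above 79.9%, 35.8% and 71.4% of all genes.

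The promoters of Bbc3 and Bcl2l11 are shown because forkhead factors are known to act on both genes and because Bbc3 had the lowest ratio of the 10 members. Both lie on the plus strand of GRCm38.p6 in RefSeq, and the 250 bases before the first of 3 starts of Bbc3 (chr7:16309333-16309582) and the first of 2 starts of Bcl2l11 (chr2:128125788-128126037) are given. Capitals mark GC boxes (GGGCGG, or CCGCCC on the other strand) in Bbc3, of which the last 2 overlap, and the forkhead element GTAAACA in Bcl2l11.
Bbc3 promoter: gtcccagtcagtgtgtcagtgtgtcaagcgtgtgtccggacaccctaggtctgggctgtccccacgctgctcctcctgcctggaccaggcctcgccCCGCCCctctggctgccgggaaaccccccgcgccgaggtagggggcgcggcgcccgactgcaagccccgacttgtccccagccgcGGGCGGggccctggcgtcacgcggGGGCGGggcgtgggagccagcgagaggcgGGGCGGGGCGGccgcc
Bcl2l11 promoter: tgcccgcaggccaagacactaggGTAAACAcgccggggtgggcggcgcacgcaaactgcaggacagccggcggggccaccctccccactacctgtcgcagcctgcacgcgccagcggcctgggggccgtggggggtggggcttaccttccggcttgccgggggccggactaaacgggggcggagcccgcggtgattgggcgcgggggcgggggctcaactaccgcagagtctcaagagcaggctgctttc
Both strands were searched in 15 windows of 300 bases from 9 members. Pmaip1, the member past 2-fold, had no window and was not searched for any element. The forkhead element stood at -227 to -221 in Bcl2l11 and at -167 to -161 from the second start of Bbc3, and 3.65% of all promoters held it. GC boxes stood in 10 of the 15 windows, those of 7 members (Bad, Bax, Bbc3, Bcl2, Bcl2l11, Bid and Mcl1), beside 35.7% of all promoters. The windows of the members were 49.3% to 78.0% GC, with a median of 52.7% over all promoters, and the windows of the last 2 starts of Bbc3 overlap and share boxes, so nothing about the family is read from this count. No window held the interferon-stimulated response element GAAANNGAAA (3.44% of all promoters), the gamma-activated site TTCNNNGAA (8.3%) or the cAMP response element TGACGTCA (1.79%); the last was searched since EP4 signals through cAMP. The absence of these letters from the windows says nothing of the factors.

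The members were also set against all genes measured on both arrays. The median log2 ratio of these 12816 genes was -0.15, and 7 members lay above it and 3 (Bax, Bad and Bbc3) below. Scalings that shift all genes alike and filters that leave the members untouched cannot change these positions. Of the 3 settings that can, normexp and loess gave the same count, and the mean of all probes gave 6 above and 4 below, with Bcl2 at -0.06. Relative to that median, Pmaip1 ran from 1.20 to 1.33 over the trimmed-mean scaling and these 3 settings, Bak1 from 0.69 to 0.86, Bcl2l1 from 0.58 to 0.81, Mcl1 from 0.53 to 0.63, Bid from 0.42 to 0.43 and Bcl2l11 from 0.15 to 0.28. Bbc3 ran from -0.57 to -0.50, Bax from -0.45 to -0.12 and Bad from -0.26 to -0.13, and Bcl2 lay on both sides (-0.06 to 0.08). Against genes of about the same signal (in 10 bins of mean signal), the difference was 1.27 for Pmaip1, 0.73 for Bak1, 0.69 for Bcl2l1, 0.50 for Mcl1, -0.43 for Bax and -0.55 for Bbc3.

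**Figure D2:**
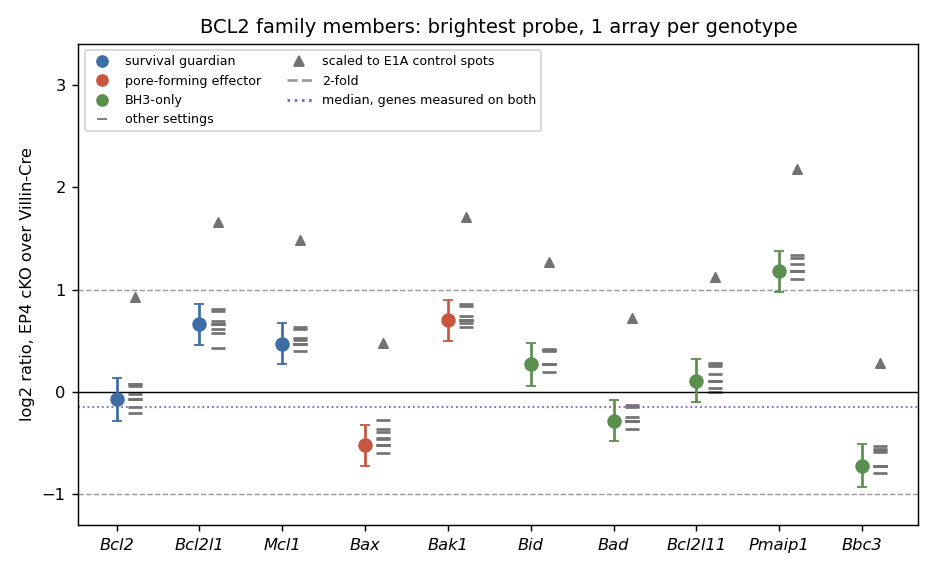
Log2 ratio (EP4 cKO over Villin-Cre) of the brightest probe of each member, coloured by role, with bars of ± 1 software error of the spots and grey marks for the other settings (triangles for scaling to E1A control spots). Pmaip1 (1.18) is above the dashed 2-fold line under every setting, and under E1A scaling the values of Bcl2, Bax, Bad and Bbc3 turn to 0.93, 0.48, 0.72 and 0.28.

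**Figure D3:**
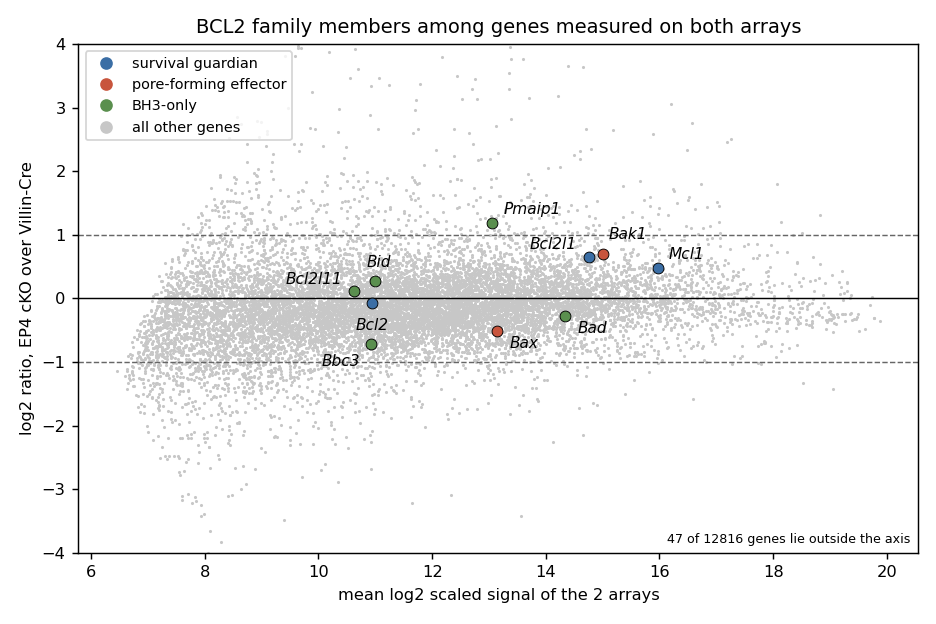
Log2 ratio against mean log2 scaled signal of both arrays for the genes measured on both (grey; 47 of 12816 lie outside the axis), with the 10 members coloured by role. Pmaip1 lies above the dashed 2-fold line at 1.18, Bak1, Bcl2l1 and Mcl1 lie in the upper part of the cloud, and Bax and Bbc3 in its lower part.

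The wider family held 16 further genes, of which 14 had a named probe and 12 a value. Past 2-fold, 2 of the 12 were higher for EP4 cKO and 1 was lower, beside 4.86% and 7.87% of all genes. The median log2 ratio was 0.11. Bnip3, a mitochondrial BH3-like protein that is induced by low oxygen and marks mitochondria for removal, rose from 7204 to 26059, a log2 ratio of 1.85 or 3.62-fold. Its relative Bnip3l (NIX) read 10659 and 16963 (0.67). Bcl2a1d, a gene among several near-identical copies for a guardian of leukocytes, rose from 260 to 779 (1.59). Its copies Bcl2a1a and Bcl2a1b had no named probe, so the signal cannot be assigned to 1 copy, and the lymphocyte and macrophage markers given above were above background in greater number on the EP4 cKO array, whose part in this value was not tested. Bok, the other pore former of the family, fell from 6843 to 3265 (-1.07), and its value was within 2-fold under scaling to the 75th percentile (-0.91) and several other scalings.

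The BH3-only genes Bik and Bmf were close to each other, at 306 and 166 and at 988 and 532 (both -0.89). The guardian Bcl2l2 (BCL-W) read 2469 and 2139 (-0.21), and Becn1, an autophagy protein that BCL2 binds, 1628 and 2054 (0.33). Bcl2l12, Bcl2l13 and Bcl2l14 lay at -0.09, 0.34 and 0.21. The brighter Hrk probe and the probe of Bcl2l10 did not pass the background flag in either genotype, the dimmer Hrk probe (28.2 and 90.6) passed it in EP4 cKO alone and gives no fold, and Bcl2l15 passed it in EP4 cKO alone (37.3 and 120) and gives no fold. With normexp, Bik and Bmf lay at -0.35 and -0.53.

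Downstream of the pores, none of the 11 listed genes of the apoptosome and the caspases passed 2-fold in either direction, and their median log2 ratio was -0.14. The largest ratio was that of Cycs, which encodes cytochrome c, at 78003 in Villin-Cre and 141043 in EP4 cKO (0.85, or 1.01 with the 75th percentile). Apaf1, the scaffold of the apoptosome, read 427 and 554 (0.38), and Casp9, which it activates, 5873 and 5322 (-0.14). The lowest ratio was that of Aifm1, a flavoprotein of the space between the mitochondrial membranes, at 17480 and 12942 (-0.43). Diablo (SMAC), which counters the inhibitors of apoptosis, read 4437 and 3875 (-0.20).

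Of 10 inhibitors of apoptosis and their antagonist, 1 was more than 2-fold higher and 0 lower, with a median of 0.25. Xaf1, an interferon-induced antagonist of XIAP, rose from 644 to 7128, a log2 ratio of 3.47 or 11.1-fold. Its second probe read 32.1 and 90.5, under the floor of the Villin-Cre array, and gives no fold. Xiap itself read 8027 and 9861 (0.30), and Birc5 (survivin), a mitotic gene, 25980 and 15862 (-0.71). The 4 Naip genes are close copies, and their values (-0.13 to 0.39) are uncertain for that reason. Of 15 genes of the mitochondrial membrane and its shape, among them the Vdac channels and the fusion and fission factors, none passed 2-fold. Their ratios ran from -0.33 (Opa1 and Vdac3) to 0.85 (Tspo, a cholesterol-binding protein of the outer membrane; 18448 and 33147), with a median of 0.11.

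**Figure D4:**
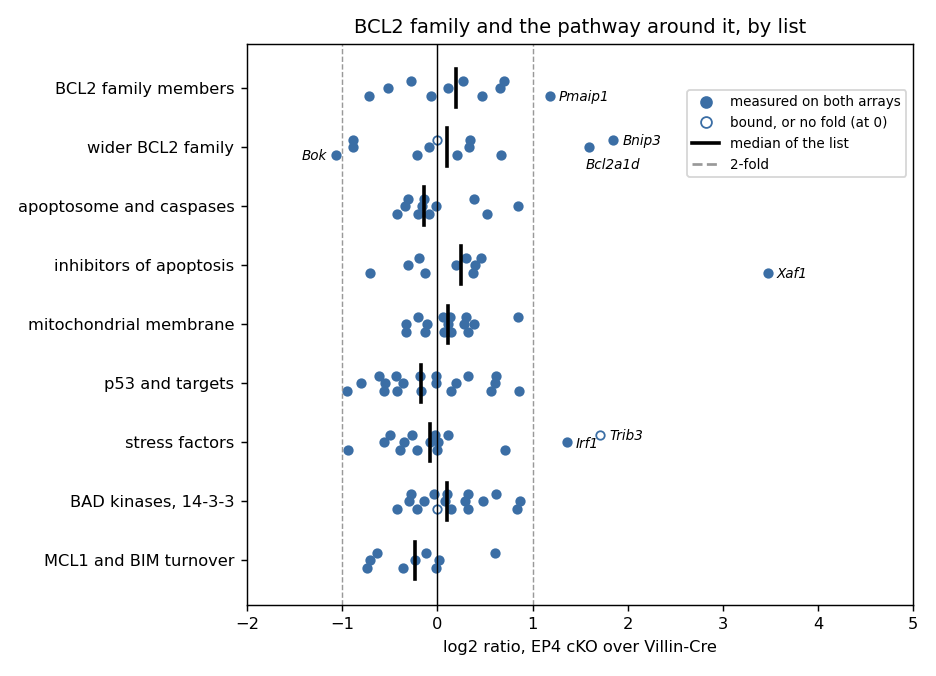
Log2 ratio (EP4 cKO over Villin-Cre, horizontal axis) of each gene of the BCL2 family and of 8 lists around it, with the median of each list as a black bar, 2-fold as dashed lines and open circles for genes well above background on the EP4 cKO array only. Under the trimmed-mean scaling shown, the medians lie between -0.24 (MCL1 and BIM turnover) and 0.25 (inhibitors of apoptosis), and the genes past 2-fold are named.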

How the data were processed

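RNA of whole colon was measured on 2 Agilent 1-colour arrays, 1 Villin-Cre and 1 EP4 cKO, grouped by their labels. The authors deposited scanner output, and the intensity analysed was each spot's processed signal, already background-subtracted and detrended by Feature Extraction (12.0.3.1 in the file header, 11.5.1.1 in the submitters' processing notes) and not scaled between arrays. Control spots and outlier spots (147 and 126) were left out. Each array was scaled to a trimmed mean of 2500 (2% cut at each end), as in the study's methods, with factors of 3.45 and 2.68. For a probe that passed the background flag on 1 array only, the signal of the other array was raised to the floor of that array where it lay below it; the floor is the lowest scaled signal that passed the flag (125 for Villin-Cre, 57.8 for EP4 cKO). Such a ratio is a bound. A bound not above 1 is no fold and counts as 0. A gene is represented by the probe with the highest mean log2 signal. The software error is the deposited error of the processed signal, carried to the log2 ratio. A spot's error had a median of 10.2% of its signal, while the SD of the log2 ratio between spots of repeated probes had a median of 0.035 (279 probes).

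Probes were named through RefSeq accessions without version (GRCm38.p6 table); 32989 of 56593 (58.3%) matched. The grid refers to an older assembly, so no probe coordinate is given. Promoters and their motifs came from RefSeq. The members and lists were chosen with earlier results of these data known, and some genes are not reported here and were left out of the lists, their counts and their medians. The genes named are all members and, of each list around the family, those past 2-fold or else the highest and lowest. Others, such as Bik, Bmf and Trp53, were singled out after their values were seen. This rule was not kept for the cell type markers. More than 2-fold lower and not named above were Uchl1 of the enteric neurons (-1.43) and the fibroblast markers Col1a1, Lum and Col6a1 (bounds of -4.32, -3.15 and -3.57). No test was possible with 1 array per genotype.

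The alternatives were the 75th percentile, normexp (offset 50, on median signals) with quantile normalization, loess (span 0.3), a trimmed mean over all spots, E1A control spots, only probes that passed the background flag on both arrays, all probes regardless of the flag, a common floor, the mean of all probes, thresholds of 1.5-fold and 3-fold, and, added after seeing the data, centring on the epithelial markers. The steps were tested on simulated data. Python 3.11.15 (numpy 2.4.6, pandas 2.3.3, statsmodels 0.14.6, matplotlib 3.10.9) and R 4.3.3 (limma 3.58.1) were used.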

Additional observations from a re-analysis of the deposited data

How the results depend on the processing

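No paired analysis was possible because each genotype has 1 array, and for the same reason no array could be left out. Pmaip1 was past 2-fold under all 10 other settings, some of which leave its signals as they are, with values up to 2.18. Scaling to E1A control spots moved the median of all genes by 0.93, and the 75th percentile, normexp, loess and the trimmed mean over all spots moved it by 0.10, 0.10, 0.14 and 0.10. The sign of Bcl2 turned under the 75th percentile, loess, the trimmed mean over all spots and E1A scaling (0.08, 0.08, 0.06 and 0.93), and those of Bax, Bad and Bbc3 under E1A scaling alone. The median of the members was 0.35 (75th percentile), 0.29 (normexp), 0.34 (loess), 0.32 (all spots), 1.19 (E1A), 0.13 (mean of all probes) and 0.11 (centred on epithelial markers, added after seeing the data). Members higher numbered 6 with E1A scaling, 3 past 1.5-fold and 0 past 3-fold, and members lower 1 past 1.5-fold. The share of all genes past 2-fold is given for the trimmed-mean scaling only, so counts under other scalings have no background here. With E1A scaling the median of all genes was 0.83. Relative to the median of the genes measured on both arrays, 1 member was then more than 2-fold above and 0 below. In the wider family 6 genes were higher with E1A scaling. 0 were lower under the 75th percentile, normexp, loess, all spots, E1A scaling and past 3-fold, 2 without a filter on dim probes and 3 past 1.5-fold. Over the lists of the apoptosome, the inhibitors of apoptosis and the mitochondrial membrane, 1 was higher in the main setting, 3 with the 75th percentile, 19 with E1A scaling and 3 past 1.5-fold, and 1 was lower past 1.5-fold. The cause of these shifts was not tested. Signal over background limits 2 probes of Bcl2l11, which give no fold, and 2 of Bcl2l1, of which 1 gives a bound and 1 no fold.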

Other observations

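Genes that act on the BCL2 family from outside are given here beside the background of all genes, of which 4.86% were past 2-fold upwards and 7.87% downwards. These shares hold for the trimmed-mean scaling, and counts under other scalings have no such background. p53 is the best-known inducer of Pmaip1, Bbc3 and Bax. Its gene Trp53 read 888 in Villin-Cre and 882 in EP4 cKO (log2 ratio -0.01), and of 19 genes with a value in the list of p53 and its targets none passed 2-fold, with a median of -0.17 (1 higher under the 75th percentile and 7 under E1A scaling; 1 lower without a filter on dim probes and 1 when centred on the epithelial markers). The members Pmaip1, Bbc3 and Bax are not in that list, so its count and median leave out Pmaip1, which passed 2-fold. The ends of the list were Cdkn1a, the p21 cell cycle inhibitor (16232 and 29483, 0.86), and Gtse1, a gene of the G2 phase (547 and 282, -0.95). Perp, an epithelial junction protein, read 95512 and 145279 (0.61), and Zmat3, an RNA-binding protein, 2417 and 1388 (-0.80). The p53 targets Pmaip1 (1.18) and Bbc3 (-0.72) lay at opposite ends of the members.

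Of 15 stress transcription factors and kinases with a value that can act on BH3-only genes, 2 passed 2-fold upwards and 0 downwards. The median was -0.08 (5 higher under E1A scaling, and 1 lower when centred on the epithelial markers). Among the 14 of them well above background on both arrays, 1 was higher. Irf1, an interferon-induced factor, rose from 29301 to 74994 (1.36), and its second probe from 660 to 1404 (1.09). Trib3, a target of ATF4 and CHOP, read 80.2 and 410 and was well above background on the EP4 cKO array only, at least 3.27-fold higher. Atf4 itself read 88085 and 87807 (0.00) and Ddit3, the gene of CHOP, 1039 and 1123 (0.11). Jun read 56251 and 29276 (-0.94), and the forkhead genes Foxo1 and Foxo3 lay at -0.22 and -0.39.

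Among the 17 listed kinases of BAD and 14-3-3 proteins, none passed 2-fold (median 0.10; 1 higher under the 75th percentile, 1 under the trimmed mean over all spots and 10 under E1A scaling). Akt1 and Akt2 lay at -0.30 and -0.43. Ywhaz, a 14-3-3 protein, read 22700 and 41565 (0.87), and Pim1 1314 and 2349 (0.84). Of 9 measured genes for the turnover of MCL1 and BIM none passed 2-fold (median -0.24; 2 higher under E1A scaling). The MCL1 ligase gene Huwe1 lay at -0.24 and the deubiquitinase gene Usp9x at -0.71 (648 and 397). The dynein light chains that tether BIM and BMF had ratios of opposite sign, with Dynll1 at 74412 and 112914 (0.60) and Dynll2 at 25320 and 15161 (-0.74, or 0.26 under E1A scaling).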
